A study of Mus musculus with 8 samples.

Results

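Endoplasmic reticulum (ER) stress genes were followed as a group of 10 in the lungs of newborn mice: Hspa5, Hsp90b1, Dnajb9, Herpud1, Atf4, Xbp1, Ddit3, Trib3, Chac1 and Asns. They were taken by gene symbol from the platform annotation, updated by RefSeq accession where one was found. All 10 were measured, by 12 array features, among 17234 genes tested. A gene with several features was represented by the brightest, averaged over all 8 arrays. RNA of whole lung from C57Bl/6J pups was profiled on 8 Agilent arrays with 1 dye (Cy3), and all pups had lived in 85% oxygen between postnatal days 0 and 3. In 4 arrays the pups were labelled Fgf10+/-, with sample titles reading TG, and in 4 they were labelled wild-type. No room-air arrays were analysed here, so the comparison is between genotypes in high oxygen and says nothing of the response to oxygen. The sources used here do not say how the Fgf10 allele was made, whether lungs were pooled or which samples shared a litter, and p-values reflect only the scatter among these samples, which may be technical.

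The ER folds secreted and membrane proteins. When unfolded proteins build up, the sensors IRE1 (Ern1), PERK (Eif2ak3) and ATF6 start the unfolded protein response: ATF6 and the spliced form of XBP1 raise chaperone and degradation genes, while PERK slows translation and favours synthesis of ATF4, which raises amino acid genes and the death-promoting factor CHOP (Ddit3). In lung, alveolar type 2 cells carry a heavy secretory load because they make surfactant proteins, and misfolded surfactant protein C is a known trigger of ER stress in them. XBP1 is controlled by splicing, ATF4 by translation and ATF6 by cleavage, none of which an expression array of this kind reports. Where the features lie within their transcripts was not known here, and spliced and unspliced Xbp1 could not be separated.

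Fgf10 itself did not check the labels. Its brightest feature read 7.81, 7.99, 8.10 and 8.28 on the log2 intensity scale in replicates 1 to 4 labelled Fgf10+/-, and 7.53, 8.16, 7.91 and 7.64 in wild-type replicates 1 to 4. The Fgf10+/- mean was the higher on 10 of 10 Fgf10 features, which read the same 8 samples and so are not separate evidence. The groups overlapped on the brightest feature, and the difference was not tested here. Whether the features lie in the altered part of the gene is unknown here. Directions therefore rest on the labels. The tissue label was borne by lung markers: Sftpc (15.98 to 15.99) and the club cell gene Scgb1a1 (15.94 to 15.97) lay at the top of the scale on all 8 arrays. Wild-type replicate 1 stood apart in a list of 10 inflammatory cytokine genes, 9 of them tested, with a score of 2.12 (mean log2 deviation from each gene's mean) while the remaining wild-type arrays scored -0.78 to -0.28. Replicate 2 labelled Fgf10+/- scored 1.05 on that list and the other 3 of its group -0.84 to -0.17. Among other lists, 9 of 11 mitosis genes were called lower in lungs labelled Fgf10+/-, against 0.569% of all genes. Of 14 macrophage markers 1 was called lower, beside that same share (median -0.39, 4 positive and 10 negative signs). Of 13 immediate early genes 0 were called, against 0.795% of all genes (median 0.28). The part of these lists in the values of the ER stress genes was not tested. Wild-type replicate 4 stood apart in the atrial gene Nppa, at 11.25 against 4.55 to 6.25 on the other 7 arrays. Its score for heart muscle genes, the highest of the 8 (0.84), includes Nppa and so is not separate evidence. Of the other genes in that score, Myh6 and Tnnt2 were highest on this array, and Myl7, Actc1, Tnni3, Myl4 and Myh7 were not.

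Promoters of 6 of the 10 members hold a match to an element known from this response. RefSeq sequence of assembly GRCm38.p6, 250 bases before to 50 after each gene start, was found for all 10 and searched on both strands for 4 motifs. The ER stress response element (ERSE, CCAAT and CCACG with any 9 bases between), bound by NF-Y and ATF6, was present in 2 members, Hspa5 and Hsp90b1, and in 0.119% of 32851 promoters. The variant ERSE-II (ATTGG and CCACG with any 1 base between), which shares the CCACG part with ERSE, was present in Herpud1 and in 0.0365% of promoters. The C/EBP-ATF response element (CARE, TGATGNAA), through which ATF4 acts, was present in Trib3, Asns, Chac1 and Herpud1 and in 3.97% of promoters. The XBP1-bound element UPRE (TGACGTGG) was in 0 members and in 0.676% of promoters. In Dnajb9, Atf4, Xbp1 and Ddit3 none of these letters occurred in the window. Variant letters and sequence outside the window were not searched, so a missing match does not show that an element is missing. No match overlapped another, and a match is a description of sequence, not a shown site of binding.

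The stretches around the matches are printed 5′ to 3′ on the strand of the gene, with the matched letters in capitals, because they show the ERSE type and the CARE type of element side by side. Hspa5 is shown at chr2:34772000-34772089 (plus strand) with its ERSE, and Hsp90b1 at chr10:86705525-86705674 (minus strand) with an ERSE in each orientation. Herpud1 at chr8:94386299-94386398 (plus strand) holds a CARE and then an ERSE-II. Chac1 at chr2:119351032-119351101 (plus strand) and Asns at chr6:7693210-7693269 (minus strand) each hold a CARE, in opposite orientations. The CARE of Trib3 begins at base 15 of the gene and is not printed.
Hspa5: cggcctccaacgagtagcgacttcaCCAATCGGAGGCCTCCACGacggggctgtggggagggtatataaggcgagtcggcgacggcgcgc
Hsp90b1: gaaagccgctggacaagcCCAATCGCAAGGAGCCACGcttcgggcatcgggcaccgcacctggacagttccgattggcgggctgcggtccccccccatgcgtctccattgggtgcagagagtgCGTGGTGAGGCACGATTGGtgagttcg
Herpud1: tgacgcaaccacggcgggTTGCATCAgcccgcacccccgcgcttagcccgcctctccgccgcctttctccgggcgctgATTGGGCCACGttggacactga
Chac1: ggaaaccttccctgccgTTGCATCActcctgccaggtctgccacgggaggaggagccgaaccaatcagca
Asns: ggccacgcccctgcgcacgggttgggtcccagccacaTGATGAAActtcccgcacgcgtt

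**Figure D1:**
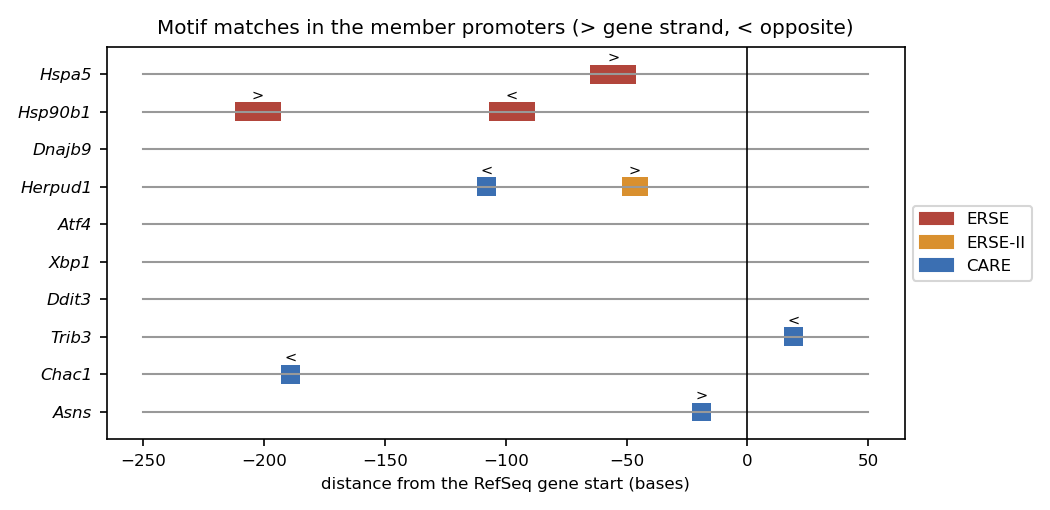
Positions of motif matches in the promoters of the 10 genes, in bases from the RefSeq gene start; colours mark the motif and arrows the strand. ERSE matches lie in Hspa5 and Hsp90b1, the ERSE-II match in Herpud1 and CARE matches in Herpud1, Trib3, Chac1 and Asns.

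None of the 10 ER stress genes was called different between lungs labelled Fgf10+/- and wild-type lungs. limma, fitted across all 17234 genes, called 0 of 10 at a Benjamini-Hochberg adjusted p below 0.05, against 0.795% of all genes (137 called, with 39 or 0.226% higher and 98 or 0.569% lower). At an unadjusted p below 0.05 the count was also 0 of 10, where 11.2% of all genes lay. The median log2 fold change (Fgf10+/- minus wild-type) was 0.04 over the members and 0.01 over all genes, and the median absolute value was 0.06 against 0.16. The members were brighter, with mean levels of 10.46 to 10.70 by array against 7.27 to 7.29 over all genes. No genes of like brightness were compared. In 0 of 10 members did the 4 arrays of a group lie apart from the 4 of the other, as they did in 6.64% of all genes. At such shares, counts of 0 among 10 genes are near what all genes give and do not set the members apart. In simulated data the fit recovered 16.8% of changes of 0.5 on the log2 scale, so differences of that size may go uncalled. The 95% confidence intervals of all 10 stayed within 1 on the log2 scale, a 2-fold change, in both directions. In whole lung, a change in the number of cells of a type and a change of RNA per cell cannot be told apart.

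**Figure D2:**
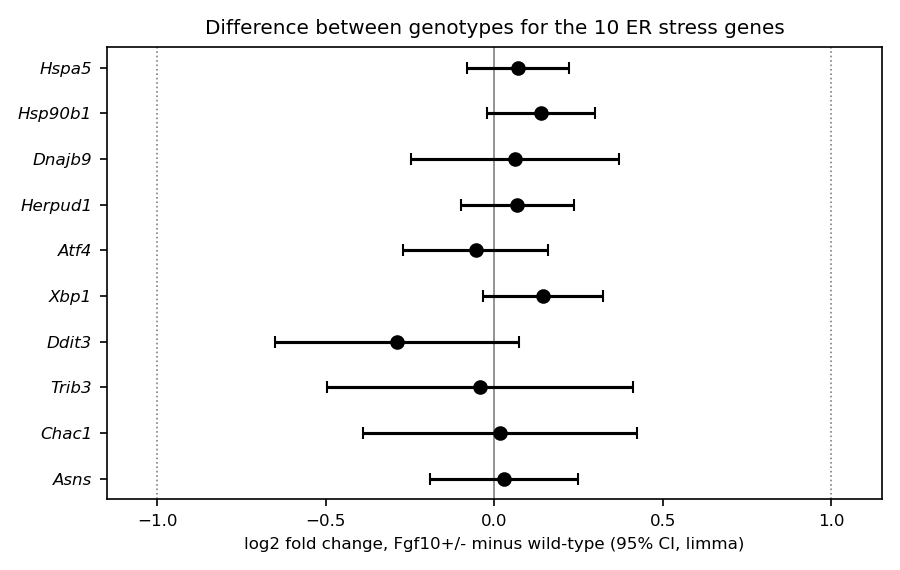
Log2 fold change of each ER stress gene, Fgf10+/- minus wild-type, with its 95% confidence interval from limma (n = 4 arrays per group); dotted lines mark a 2-fold change. All intervals include 0, the lowest bound is -0.65 in Ddit3 and the highest 0.42 in Chac1.

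Of the chaperones, Hspa5 and Hsp90b1 had the narrowest intervals of the 10 genes. Hspa5 encodes BiP (GRP78), the main HSP70 chaperone of the ER lumen, which also holds the sensors inactive. It read 13.77, 13.85, 13.80 and 13.78 in replicates 1 to 4 labelled Fgf10+/- and 13.61, 13.76, 13.68 and 13.87 in wild-type replicates 1 to 4. The Fgf10+/- values lay inside the wild-type range, whose highest value was replicate 4 and lowest replicate 1. The difference was 0.07 (SE 0.07, 95% CI -0.08 to 0.22, limma adjusted p = 0.787), so a level up to 1.17-fold of the wild-type mean lay inside the interval. It was 0.03 without wild-type replicate 1 and 0.12 without wild-type replicate 4.

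Hsp90b1 encodes GRP94, the HSP90 of the ER, which folds integrins and secreted growth factors. Its values were 13.34, 13.15, 13.28 and 13.32 in lungs labelled Fgf10+/- and 13.03, 13.22, 13.06 and 13.22 in wild-type lungs. Of the Fgf10+/- arrays 3 lay above all wild-type arrays, and replicate 2 lay within them. The difference of 0.14 (SE 0.07, 95% CI -0.02 to 0.30) had the smallest p of the 10 genes and did not pass (limma adjusted p = 0.526).

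Dnajb9 encodes ERdj4, a J-domain partner of BiP that is itself a target of spliced XBP1. It read 8.19, 8.54, 8.66 and 8.53 in lungs labelled Fgf10+/- and 8.72, 8.22, 8.40 and 8.35 in wild-type lungs. Replicate 1 was the lowest of its group under the Fgf10+/- label and the highest of its group under the wild-type label. The groups overlapped through these arrays. The remaining values were 8.53 to 8.66 in lungs labelled Fgf10+/- and 8.22 to 8.40 in wild-type lungs. Setting arrays aside for their contrary values favours a gap among the rest, so no separation is read from it. The difference was 0.06 (95% CI -0.25 to 0.37, limma adjusted p = 0.919). A second, dimmer Dnajb9 feature read between 3.10 and 5.35 and differed by 0.24, with SDs of 0.89 and 0.59.

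Herpud1, a membrane protein that helps carry misfolded proteins out of the ER for degradation and holds both a CARE and an ERSE-II, had the lowest wild-type SD of the 10 members (0.08). It read 10.86, 10.81, 10.93 and 10.88 in lungs labelled Fgf10+/- and 10.84, 10.78, 10.70 and 10.88 in wild-type lungs. The groups overlapped, with wild-type replicate 3 lowest. The difference was 0.07 (SE 0.08, 95% CI -0.10 to 0.24, limma adjusted p = 0.815), and it was 0.03 without wild-type replicate 3.

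**Figure D3:**
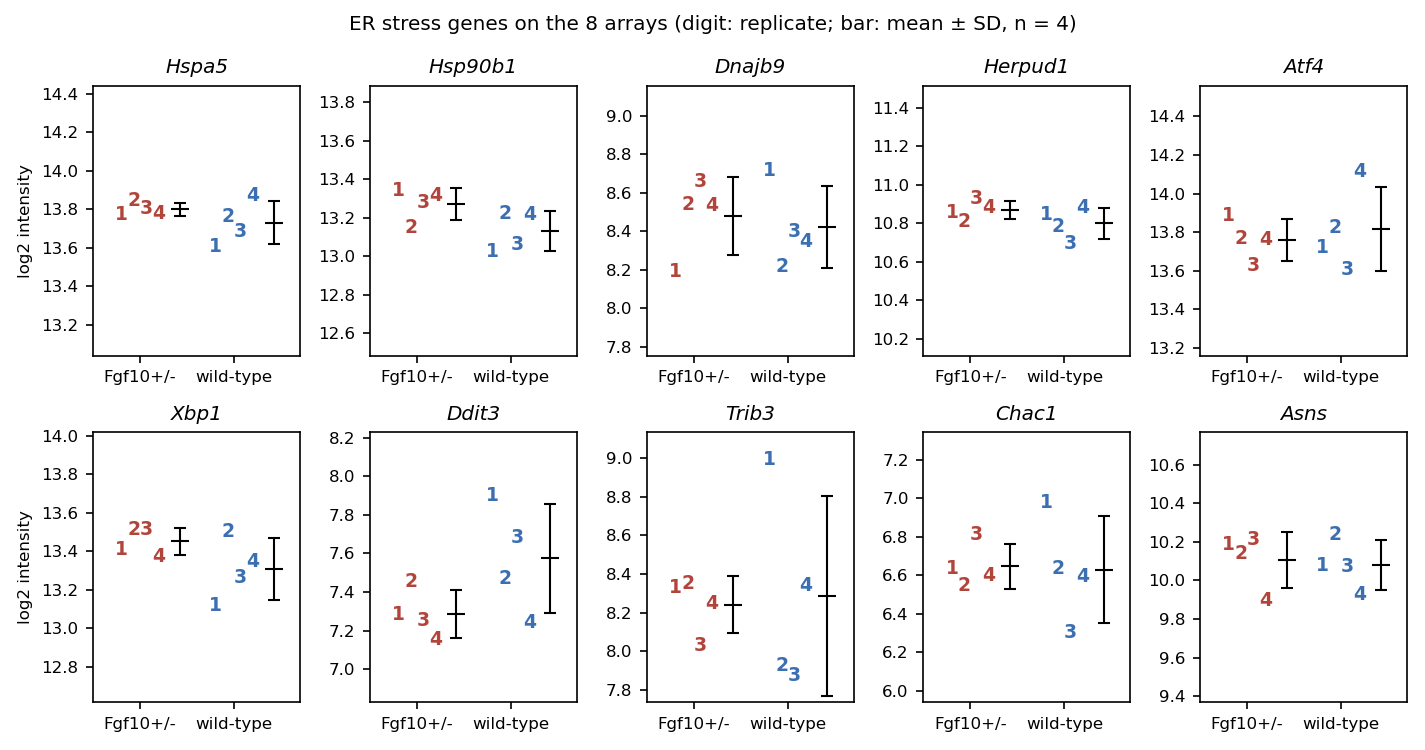
Log2 intensity of the 10 ER stress genes on each array; digits are replicate numbers, bars give mean ± SD (n = 4), and every panel spans the same height on the log2 scale. The groups overlap in all 10 panels, and wild-type replicate 1 is the highest point for Dnajb9, Ddit3, Trib3 and Chac1.

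Of the transcription factors, Xbp1, the effector of IRE1, read 13.41, 13.51, 13.51 and 13.37 in lungs labelled Fgf10+/- and 13.12, 13.50, 13.26 and 13.35 in wild-type lungs. Wild-type replicate 1 was the lowest of the 8, and wild-type replicate 2 lay among the Fgf10+/- values. The difference was 0.14 (SE 0.08, 95% CI -0.03 to 0.32, limma adjusted p = 0.562), so the highest level inside the interval was 1.25-fold of the wild-type mean. Without wild-type replicate 1 the difference was 0.08.

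Atf4, the translation-controlled factor of the PERK branch, read 13.89, 13.77, 13.62 and 13.76 in lungs labelled Fgf10+/- and 13.72, 13.82, 13.60 and 14.11 in wild-type lungs. Wild-type replicates held both the highest value (replicate 4) and the lowest (replicate 3). The difference was -0.06 (SE 0.10, 95% CI -0.27 to 0.16, limma adjusted p = 0.89). Its second feature, with a mean of 7.87 in lungs labelled Fgf10+/- and 7.94 in wild-type lungs, gave -0.07, and on it too wild-type replicate 4 was highest and replicate 3 lowest.

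Ddit3, which encodes CHOP, had the largest difference of the group in size. It read 7.28, 7.45, 7.25 and 7.15 in lungs labelled Fgf10+/- and 7.90, 7.47, 7.68 and 7.24 in wild-type lungs. Of the wild-type arrays 3 lay above every Fgf10+/- array and replicate 4 lay below 3 of them. The wild-type mean was 1.22-fold that of the lungs labelled Fgf10+/-. On the log2 scale the difference was -0.29 (SE 0.17, 95% CI -0.65 to 0.07, limma adjusted p = 0.566), and it was -0.18 without wild-type replicate 1 and -0.40 without wild-type replicate 4.

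The genes downstream of ATF4 and CHOP had differences near 0. Trib3, a pseudokinase that feeds back on ATF4, read 8.33, 8.35, 8.03 and 8.25 in lungs labelled Fgf10+/- and 8.995, 7.93, 7.87 and 8.34 in wild-type lungs. Wild-type replicate 1 stood 0.95 above the mean of the other 3 wild-type arrays, and the wild-type SD of 0.52 was the highest among the members. The difference was -0.04 (SE 0.21, 95% CI -0.50 to 0.41, limma adjusted p = 0.961), and its sign turned to 0.19 without that array.

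Chac1, an enzyme that breaks down glutathione and is induced through ATF4, read 6.63, 6.54, 6.81 and 6.60 in lungs labelled Fgf10+/- and 6.98, 6.64, 6.30 and 6.60 in wild-type lungs. The extremes were wild-type replicates 1 and 3, with all Fgf10+/- arrays between them. The difference was 0.02 (SE 0.19, 95% CI -0.39 to 0.42, limma adjusted p = 0.985).

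Asns, asparagine synthetase, a classic ATF4 target, read 10.19, 10.14, 10.21 and 9.89 in lungs labelled Fgf10+/- and 10.08, 10.24, 10.07 and 9.92 in wild-type lungs. Replicate 4 was lowest under both labels and the groups overlapped. The difference was 0.03 (SE 0.10, 95% CI -0.19 to 0.25, limma adjusted p = 0.947).

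The members varied more between wild-type lungs than between lungs labelled Fgf10+/-. The wild-type SD was the larger in 9 of 10 members, the exception being Asns, where it was the larger in 57.0% of all genes. SDs ran from 0.03 (Hspa5) to 0.20 (Dnajb9) in lungs labelled Fgf10+/- and from 0.08 (Herpud1) to 0.52 (Trib3) in wild-type lungs. Without wild-type replicate 1 the count was 9 of 10 and the share of all genes 51.4%, but the exception was then Dnajb9 (wild-type SD 0.094) and no longer Asns (0.16). This pattern was noticed after the values were seen, and the difference in spread was not tested.

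Wild-type replicate 1 placed the members at opposite ends. Of the 8 arrays it was the highest for Ddit3, Trib3, Chac1 and Dnajb9 and the lowest for Hspa5, Hsp90b1 and Xbp1, against 13.2% of all genes highest and 14.6% lowest in it. The stress factor Atf3, an ATF4 target, read 7.79 in that array, 6.25 to 6.32 in wild-type replicates 2 to 4 and 6.34 to 6.97 in lungs labelled Fgf10+/-. It was picked from 35 further ATF4 and CHOP targets, whose score in that array was 0.12. Of these, Pmaip1, Mthfd2, Slc3a2, Cebpg, Slc7a11, Cebpb and Bcl2l11 were also highest there. Phgdh, Sesn2, Vldlr and Shmt2 were instead lowest there. Wild-type replicate 1 also held the highest cytokine score and the highest macrophage (0.50) and neutrophil (0.58) scores of the 8. The next macrophage score was 0.34 (wild-type replicate 4) and the next neutrophil score 0.45 (replicate 1 labelled Fgf10+/-). Its heart muscle (-0.57) and erythroid (-0.68) scores were the lowest, with wild-type replicate 3 close on the latter (-0.65). The part of these lists in the levels of the members was not tested. Without it, 0 of 10 members were called by limma, and the differences were 0.10 for Hsp90b1, 0.13 for Chac1 and 0.16 for Dnajb9.

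**Figure D4:**
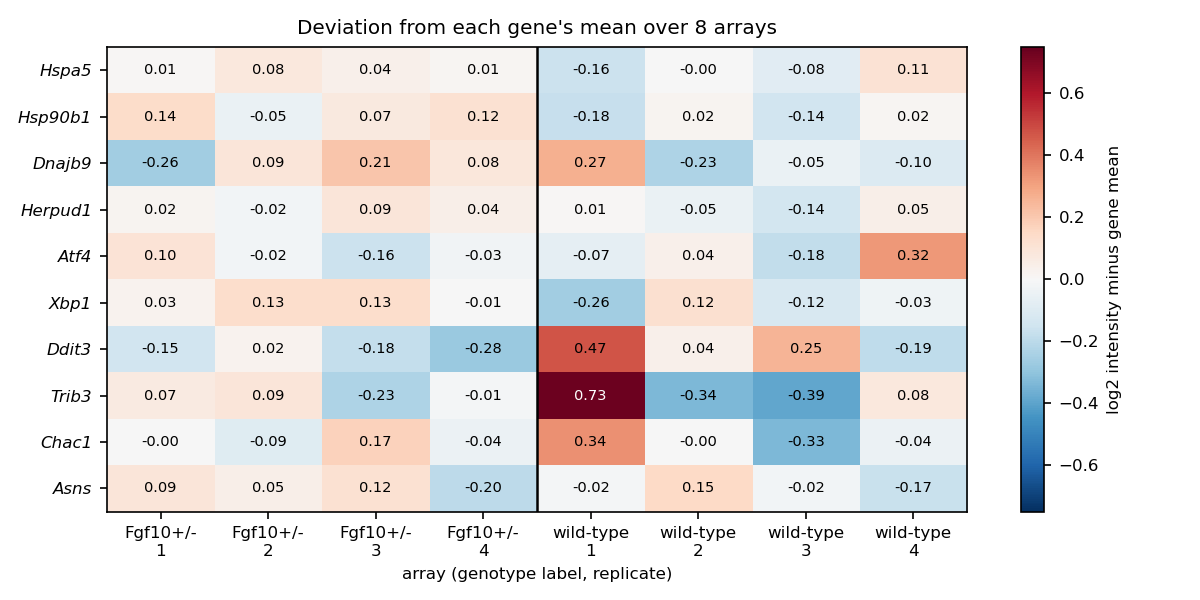
Log2 intensity of each ER stress gene minus its mean over the 8 arrays, by array. The Trib3 cell of wild-type replicate 1 is the farthest from 0, and that column is high for Ddit3, Trib3, Chac1 and Dnajb9 and low for Hspa5, Hsp90b1 and Xbp1.

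The wider pathway gave no called gene either. In 5 further lists 97 genes were tested, and Fgf21 did not pass the filter on low values. limma called 0 of 97 (0.795% of all genes). At an unadjusted p below 0.05 lay 10 of 97, against 11.2% of all genes. Of these 10, 6 were higher and 4 lower in lungs labelled Fgf10+/-. The smallest limma adjusted p was 0.112. The median log2 fold change was 0.03, against 0.01 over all genes. Values under the Fgf10+/- and wild-type labels did not overlap in 6 of the 97, beside 6.64% of all genes. Separation of the groups, given below for single genes, was therefore no more frequent in these lists than elsewhere.

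Sensors and regulators of translation showed no call among 14, with 7 positive and 7 negative signs and a median of 0.00. The PERK gene Eif2ak3 read 8.21 to 8.32 in lungs labelled Fgf10+/- and 7.84 to 8.16 in wild-type lungs, so the groups lay apart. Its difference of 0.21 (SE 0.12) did not pass (limma adjusted p = 0.557). Atf6b, a relative of ATF6, differed by 0.45 (SE 0.24) and Mbtps1, the protease that first cuts ATF6, by 0.11 (SE 0.08).

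Among 18 further ER chaperones and folding enzymes 15 had a positive sign and 3 a negative one, where 51.3% of all genes were positive, and the list median was 0.09. The positive signs numbered 12 with array weights and 12 without replicate 4 labelled Fgf10+/-. Hyou1, a large HSP70 relative of the ER, read 4.13, 4.35, 5.56 and 4.12 in lungs labelled Fgf10+/- and 2.91, 3.21, 3.73 and 2.31 in wild-type lungs. The groups lay apart, at a difference of 1.50 (SE 0.42) that did not pass (limma adjusted p = 0.144). The wild-type values lay close to the filter level of 2.76, and whether they were above background is unknown. The disulfide isomerase Pdia3 differed by 0.60 (SE 0.21, limma adjusted p = 0.261), with wild-type replicate 3 at 11.80 among the Fgf10+/- values of 11.25 to 11.94 and the other wild-type arrays at 10.70 to 10.96. Without that wild-type array Pdia3 alone among the wider genes was called, at 0.83 (limma adjusted p = 0.0349). The lectin chaperone calnexin (Canx) differed by 0.18 (SE 0.10).

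In the machinery that moves new proteins into the ER, 13 of 14 genes had a positive sign and the median was 0.10, with none called. Sec61b, a subunit of the translocation channel, read 13.56 to 13.78 in lungs labelled Fgf10+/- and 13.25 to 13.60 in wild-type lungs, a difference of 0.26 (SE 0.08, limma adjusted p = 0.235). Its 2 other features gave 0.27 and 0.22. The signal sequence receptor Ssr1 differed by 0.18 (SE 0.10), and its dimmer features gave 0.09 and -0.32. The signal peptidase subunit Spcs3 differed by 0.23 (SE 0.16). Averaging the features of each gene left 11 of 14 positive with a median of 0.09. Without replicate 3 labelled Fgf10+/- the median was 0.05 here and 0.05 in the chaperone list. It was 0.16 here without replicate 2 labelled Fgf10+/- and 0.16 in the chaperone list without wild-type replicate 2.

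Type 2 cell markers differed with the genotype label beside these small positive values. Of 14 markers 6 were called higher in lungs labelled Fgf10+/- (0.226% of all genes), and the list median was 0.41. Sftpc lay at the top of the scale, where a difference cannot be read. The other surfactant protein genes of the list were not called, with differences of 0.14 (Sftpb), 0.10 (Sftpa1) and 0.11 (Sftpd). The mean level of the list was 12.13 to 12.35 in lungs labelled Fgf10+/- and 11.84 to 11.95 in wild-type lungs. The lamellar body lipid transporter Abca3 rose by 0.48 (SE 0.08, limma adjusted p = 0.0151). The part of type 2 cell RNA in the chaperone and translocation values was not tested. Markers of plasma cells, secretory cells with high Xbp1, gave 0 called of 6 tested, against 0.795% of all genes, with 2 positive and 4 negative signs. Mean levels were 6.31 to 6.53 in lungs labelled Fgf10+/- and 6.01 to 6.77 in wild-type lungs. The groups lay apart in Sdc1, at a difference of 0.47 (SE 0.13, limma adjusted p = 0.117). Jchain and Tnfrsf17 did not pass the filter on low values.

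Genes of ER-associated degradation split in sign, 7 positive and 9 negative among 16, with a median of -0.02. The ubiquitin-conjugating enzyme Ube2j1 read 9.61 to 9.77 in lungs labelled Fgf10+/- and 9.85 to 10.10 in wild-type lungs, so the groups lay apart at -0.28 (SE 0.09), without passing (limma adjusted p = 0.254). Its other 2 features gave -0.48 and -0.12. Derl1, part of the exit channel, differed by 0.25 (SE 0.10), but its other feature gave -0.19. Selenos, a selenoprotein partner of the derlins, differed by 0.21 (SE 0.11).

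Further targets of ATF4 and CHOP also split, 19 positive and 16 negative among 35 tested, with a median of 0.02. The BH3-only death genes Bbc3 (PUMA) and Pmaip1 (NOXA), which p53 controls as well, had opposite signs, and in both the groups lay apart. Bbc3 read 10.12 to 10.37 in lungs labelled Fgf10+/- and 9.69 to 10.04 in wild-type lungs, a difference of 0.39 (SE 0.10, limma adjusted p = 0.112). Pmaip1 read 5.31 to 5.74 and 5.85 to 6.58, a difference of -0.72 (SE 0.23, limma adjusted p = 0.221). Phgdh, the first enzyme of serine synthesis, read 7.53 to 7.90 and 6.84 to 7.47, a difference of 0.54 (SE 0.17, limma adjusted p = 0.219), and its other feature gave 0.16.

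**Figure D5:**
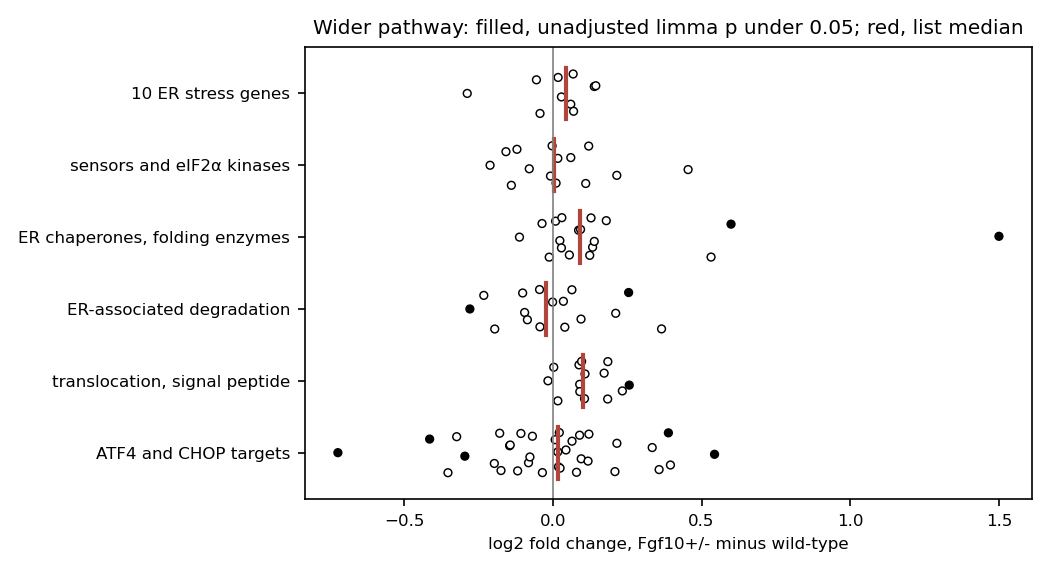
Log2 fold change, Fgf10+/- minus wild-type, of every tested gene in the 10 ER stress genes and 5 wider lists; filled points have an unadjusted limma p below 0.05, and red bars are list medians. Medians lie between -0.02 (degradation) and 0.10 (translocation), and the point at 1.50 is Hyou1.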

How the data were processed

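RNA was measured on 1-colour Agilent arrays, 4 labelled Fgf10+/- and 4 wild-type. The deposited table holds log2 intensities for 62976 features. The submitters' processing notes name limma without a version or step. Array medians lay between 3.6897 and 3.6904, so no normalization was added. No source used here states the background correction, and no detection call was at hand. Symbols came from the platform annotation for 31465 features, and 29050 of these had an accession found in RefSeq's GRCm38.p6 gene list. Those features took the RefSeq symbol, which differed from the platform symbol in 2933 of them.

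The 189 features with a missing value and those with a mean below the 30th percentile (2.76) were left out. The brightest feature stood for a gene. Genes were tested with limma 3.58.1 in R 4.3.3 (lmFit, eBayes with a variance trend), two-sided, and called at an adjusted p below 0.05. In simulated data for this comparison (17234 genes, 200 of them changed, 10 runs) the fit recovered 16.8% of changes of 0.5 and 46.4% of changes of 1 on the log2 scale. Arrays have no read depth, and precision is limited by how many there are.

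The members and gene lists were chosen with earlier results of these data known. Named were all members and, in each wider list, every called gene and the 3 genes with the smallest p. For Hspa5 and Ddit3 the 3 most correlated genes were added. Other genes, such as Atf3 and the markers named, were chosen after their values were seen.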

Additional observations from a re-analysis of the deposited data

How the results depend on the processing

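The count of 0 called members held under all 8 alternatives that kept every array (other filters and normalizations, features averaged, no variance trend, array weights, replicate block) and in all 8 runs with 1 array left out, where the smallest adjusted p of a member was 0.468 and 0.421. Of 80 member values under the former, 78 kept their sign; with array weights Trib3 was 0.042 and Asns -0.0013. With 1 array left out the range was -0.13 to 0.043 for Atf4, -0.18 to 0.19 for Trib3, -0.023 to 0.10 for Asns, -0.091 to 0.13 for Chac1 and -0.0078 to 0.16 for Dnajb9. The other 5 members kept their sign, with ranges of 0.028 to 0.12 for Hspa5, 0.10 to 0.18 for Hsp90b1, 0.082 to 0.21 for Xbp1, 0.033 to 0.095 for Herpud1 and -0.40 to -0.18 for Ddit3. The members' median ran from 0.01 to 0.08, and the wider pathway had 0 to 1 called genes. The count over all genes, 137, was 1 without the variance trend and 34 to 173 with 1 array left out, lowest without wild-type replicate 2 and highest without wild-type replicate 1. Same-numbered arrays did not deviate together (r from -0.06 to 0.07 over genes, 1 of 4 best with its own number), and the replicate block gave 0 called members and 116 called genes. The median of 35 ATF4 and CHOP targets was -0.04 without wild-type replicate 3. With no detection call, dim values such as those of Hyou1 may lie at background.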

Other observations

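Among the 106 other genes of the members and wider lists, the profile over the 8 arrays most like that of Hspa5 was that of Vcp, the ATPase that pulls misfolded proteins from the ER membrane. Pearson's r was 0.94 over the 8 arrays and 0.97 over deviations from the group means. Syvn1, the ubiquitin ligase of ER-associated degradation, followed with 0.88 and 0.87, and the ATF4-related factor Atf5 with 0.76 and 0.75. For Ddit3 the most alike were Ube2j1 at 0.70 (0.45 over deviations), Atf3 at 0.69 (0.78) and the derlin gene Derl2 at 0.63 (0.58). Spearman's rho was 0.90 for Hspa5 with Vcp, 0.62 with Syvn1 and 0.90 with Atf5, and for Ddit3 it was 0.62 with Ube2j1, 0.14 with Atf3 and 0.64 with Derl2. Among the members, Ddit3 ran opposite to Hsp90b1 (-0.92, and -0.87 over deviations) and to Hspa5 (-0.82 and -0.78). These values describe 8 arrays that share their processing, and wild-type replicate 1 is an extreme array for Hspa5, Hsp90b1 and Ddit3. Leaving out the 2 arrays farthest from the median of the first gene gave 0.84 for Hspa5 with Vcp, 0.46 with Syvn1 and 0.63 with Atf5, and 0.59, 0.45 and 0.95 for Ddit3 with Ube2j1, Atf3 and Derl2.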
